A study of Mus musculus with 135 samples.

Results

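The replication licensing genes described here are *Mcm2*, *Mcm3*, *Mcm4*, *Mcm5*, *Mcm6*, *Mcm7*, *Mcm10*, *Cdc6*, *Cdt1* and *Gmnn*. These 10 genes were chosen by name from the 15181 RefSeq genes of the read count table, and all 10 were found there. They were measured by RNA sequencing of single haematopoietic stem cells (HSCs) from the bone marrow of 1 young and 1 old mouse, aged 2 to 3 and 20 to 25 months, both C57BL/6 mice that carry the Vwf-eGFP reporter. HSCs were sorted from both mice as 7AAD-, lineage-, Sca-1+, c-Kit+, CD150+ and CD48- cells, a gate that does not name the reporter, and 61 young and 74 old cells were captured on microfluidic chips. The 52 young and 62 old cells that passed the limits in the methods of the study (at least 500000 mapped reads, at most 10% of them mitochondrial, and at least 3000 genes) were used. Age, mouse and capture run changed together, so their parts in any difference between young and old cannot be told apart, and *Xist*, which is transcribed from the inactive X chromosome, was expressed in 50 of the 52 young cells but 8 of the 62 old ones. Cells of 1 mouse are not replicates, so the differences below have no replicate check and carry no p-value.

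Licensing is the step by which a cell prepares its replication origins before S phase. The origin recognition complex binds DNA, CDC6 and CDT1 join it, and together they load the MCM2-7 complex, a ring of 6 different subunits, onto the DNA. Kinases then turn the loaded ring into the replicative helicase, with MCM10 needed to activate it, and geminin, the product of *Gmnn*, binds CDT1 in S and G2 phase and so blocks renewed loading. Most HSCs in the adult marrow are quiescent, and licensing genes are known as transcripts that E2F factors induce when a cell leaves quiescence.

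The level of a gene in a group is its log2(CPM + 1) averaged over the cells of that group, where CPM is the gene's count scaled to 1000000 gene reads in the cell. A gene was taken as expressed in a cell where log2(CPM + 1) was above 2, which is more than 3 CPM. Cells were also split by *Ccna2*, *Ccnb1*, *Cdk1* and *Cdc25c*, which encode cyclins, a kinase and a phosphatase that act in S, G2 and M phase. A cell with any of these 4 class genes expressed is called a cell with class genes. A difference of at least 1 in mean log2(CPM + 1), which is 2-fold on that scale, is called higher or lower, and this is a limit of size and not a test.

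On GRCm38.p6 the subunit genes lie at chr6:88883474-88898780 (*Mcm2*), chr1:20802966-20820312 (*Mcm3*), chr16:15623897-15637400 (*Mcm4*), chr8:75109468-75128439 (*Mcm5*), chr1:128331575-128359705 (*Mcm6*) and chr5:138164583-138172111 (*Mcm7*). *Mcm10* lies at chr2:4990724-5012791, *Cdc6* at chr11:98907709-98923942, *Cdt1* at chr8:122568015-122573130 and *Gmnn* at chr13:24751845-24761937. *Mcm7* shares 557 of its 4426 exonic bases with *Ap4m1*, *Cops6*, *Mir25* and *Mir93*. No source states that strand was used in counting, so reads from those bases cannot be told apart and the values of *Mcm7* are uncertain to that extent.

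The promoters are shown because E2F factors are known regulators of licensing genes. A part of E2F in the differences below was not tested. The RefSeq promoter table (250 bases before to 50 after a gene's start) held 8 of the 10 members, and not *Mcm4* or *Gmnn*. Both strands were searched for TTTCCCGC, TTTGGCGC, TTTCGCGC and TTTGCCGC, which are forms of the E2F motif, and overlapping matches were kept. At least 1 of them was found in the windows of 6 of the 8 members (*Mcm3*, *Mcm5*, *Mcm6*, *Mcm7*, *Cdc6* and *Cdt1*), in 2.26% of all 32851 promoters and in 4.28% of the 11229 genes of the count table that have one. CCAAT, the sequence bound by NF-Y, was found for 6 of the 8 members and in 37.4% of all promoters. The stretches below are in GRCm38.p6, 5' to 3' on the strand of the gene, with matches to the 4 E2F forms, on either strand, in capitals. Those of *Mcm5* (chr8:75109329-75109467, plus strand) and *Mcm6* (chr1:128359706-128359885, minus strand) lie before the start, and both hold TTTGGCGC and TTTCGCGC overlapping on opposite strands. *Mcm6* holds a second TTTGGCGC, whose first base is at -47. The others are stretches of 30 bases in *Mcm7* (chr5:138172027-138172056, minus strand), *Cdc6* (chr11:98908005-98908034, plus strand), *Mcm3* (chr1:20820266-20820295, minus strand) and *Cdt1* (chr8:122568035-122568064, plus strand). The stretch of *Mcm3* holds 2 matches, and *Mcm7* has a further TTTCGCGC after its start that is not shown. Those of *Mcm3* and *Cdt1* lie just after the start, in exons, and that of *Mcm7* lies in exons of *Ap4m1* and of other *Mcm7* transcripts. A match is a run of letters and not a measured binding site.
Mcm5: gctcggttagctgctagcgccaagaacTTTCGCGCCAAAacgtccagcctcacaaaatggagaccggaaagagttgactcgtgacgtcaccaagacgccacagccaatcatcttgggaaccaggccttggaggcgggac
Mcm6: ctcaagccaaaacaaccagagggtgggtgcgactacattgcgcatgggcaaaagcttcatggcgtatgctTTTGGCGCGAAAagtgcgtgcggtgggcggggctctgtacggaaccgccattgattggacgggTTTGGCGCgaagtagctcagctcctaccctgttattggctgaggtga
Mcm7: ttcgaaccGCGGGAAAcagggtgtccaacc
Cdc6: ggtggagaGCGGGAAAtcgcctggggtctg
Mcm3: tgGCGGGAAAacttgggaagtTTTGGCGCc
Cdt1: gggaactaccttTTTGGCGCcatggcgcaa

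Each young cell had between 273236 and 5688706 reads on genes and each old cell between 276316 and 4086659. The limit of 3 CPM therefore stood for 0.820 reads in the shallowest cell and 17.1 in the deepest. At least 1 of 7 HSC marker genes was expressed in every young and every old cell, and *Kit* in 49 young and 61 old cells. Of the markers of multipotent progenitors (*Cd48*, *Flt3* and *Cd34*), at least 1 was expressed in 30 young and 24 old cells. Their summed level ran from 0 to 11.3 in young and from 0 to 9.71 in old cells, with medians of 3.97 and 0.78, and *Cd48* had no read in any old cell. The erythroid factor *Klf1* was expressed in 2 of the 52 young cells and in 0 of 62 old ones, which allows a share of up to 4.84%. At least 1 of 4 granulocyte and macrophage markers was expressed in 44 young and 44 old cells. The B cell marker *Cd79b* was expressed in 12 young and 16 old cells, and the T cell marker *Cd3d* in 16 and 16. At least 1 of 4 megakaryocyte and platelet markers was expressed in 21 young and 37 old cells, and their summed level ran from 0 to 10.1 (median 0.94) and from 0 to 11.5 (median 4.13). The part of these markers in the differences below was not tested.

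**Figure D1:**
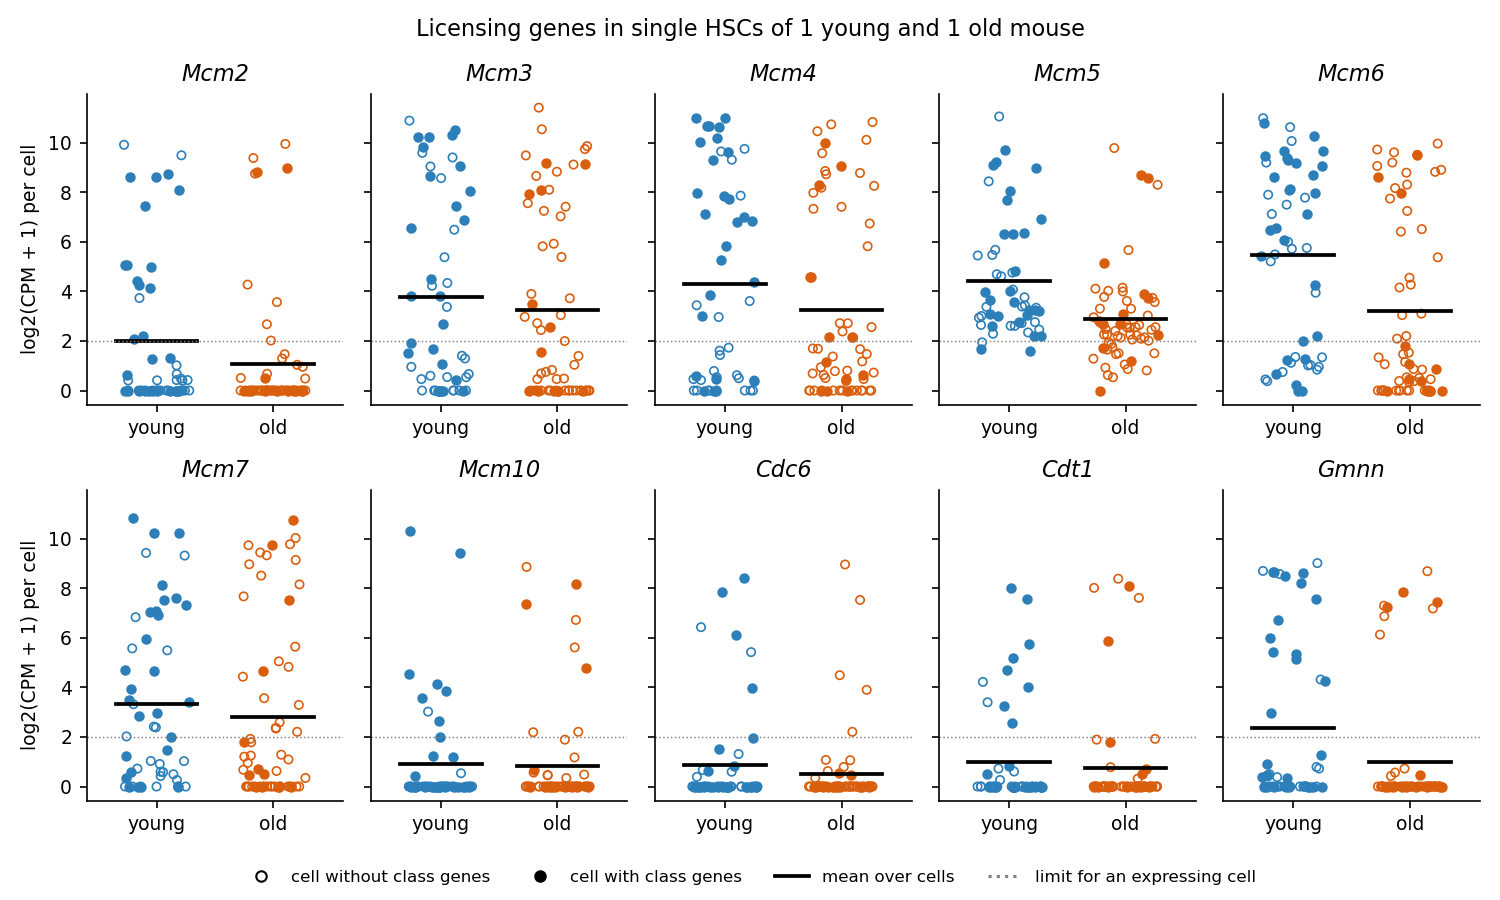
Level of each of the 10 members in every cell, as log2(CPM + 1) on the vertical axis, for the 52 young and 62 old cells side by side. Filled points are cells with class genes, open points cells without, bars are means over cells, and the dotted line is the limit of 2 for an expressing cell. Most members are at or near 0 in many cells and high in others, while *Mcm5* has reads in nearly every cell.

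All 10 members had a lower mean level in old than in young cells, and the ranges over cells overlapped for each of them. *Mcm6*, *Mcm5*, *Gmnn* and *Mcm4* were lower by at least 1, which is 4 of 10 members beside 4.49% of the 15014 genes with a count. With genes kept only if expressed in at least 10% of cells, 9 members remained (*Cdc6* did not) and the same number, 4, were lower, beside 6.98% of 9374 genes. The median difference was -0.75 over the 10 members and -1.01 over the 6 subunits, and -0.02 over all genes. Young cells had a median of 6121.5 genes detected and old cells 5807, with medians of 2.80e+06 and 2.12e+06 reads on genes. The part of genes detected in the difference between the ages was not tested.

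*Mcm6* encodes a subunit of the ring and showed the largest difference between the ages. In young cells its log2(CPM + 1) ran from 0 over a median of 6.03 to 10.99, and in old cells from 0 over a median of 1.11 to 9.97. It was expressed in 36 of 52 young cells (69.2%, 95% exact Clopper-Pearson interval 54.9 to 81.3) and 26 of 62 old cells (41.9%, 29.5 to 55.2). The mean level was 5.47 in young and 3.20 in old cells, a difference of -2.27. Such intervals cover counting error only, since the reads carry no molecular identifiers.

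*Mcm5* was the member found most widely, with at least 1 read in 52 of 52 young and 61 of 62 old cells. In young cells its level ran from 1.59 over a median of 3.41 to 11.06, and in old cells from 0 over a median of 2.51 to 9.79. The mean fell by 1.55 on the log2 scale, from 4.43 to 2.88. Levels above 4 were found in 21 young and 9 old cells, so the difference lay both in the number of high cells and in the middle of the distribution.

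*Gmnn* was expressed in 17 of 52 young cells (32.7%, 20.3 to 47.1) and 8 of 62 old cells (12.9%, 5.74 to 23.9), and its mean level was 2.36 in young and 0.98 in old cells. Its median level was 0.36 in young and 0 in old cells, and the highest cells reached 9.02 and 8.69. *Mcm4* was expressed in 28 young and 27 old cells, and its mean fell by 1.06 from 4.29 to 3.23. The difference in *Mcm4* was close to the limit and came to less than 1 when any of 16 cells was left out, with -0.93 without the young cell of well G8 as the smallest value.

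The remaining members differed by less than 1. *Mcm2* went from 2.00 to 1.05 with 16 of 52 and 9 of 62 cells expressing it, *Mcm3* from 3.79 to 3.24 with 25 and 28, and *Mcm7* from 3.34 to 2.81 with 27 and 24. The loading factors *Cdc6* and *Cdt1* were found in few cells of either age. *Cdc6* was expressed in 6 young and 5 old cells (means 0.89 and 0.52) and *Cdt1* in 10 and 5 (means 0.99 and 0.74). *Mcm10* had means of 0.90 and 0.84, with 9 and 8 cells expressing it. Its summed reads differed more, at 7.19 CPM per kilobase in young and 2.48 in old cells, and 51.4% of the young reads came from the cell of well G1.

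Levels can be compared between genes only per length of transcript. As mean log2(CPM per kilobase + 1), the order in young cells was *Mcm6* (3.89), *Mcm4* (3.22), *Mcm5* (2.96), *Mcm3* (2.91), *Mcm7* (2.46), *Gmnn* (2.38), *Mcm2* (1.42), *Cdt1* (0.77), *Cdc6* (0.54) and *Mcm10* (0.53). In old cells *Mcm3* (2.48) was the highest, before *Mcm4* (2.33), *Mcm6* (2.19), *Mcm7* (2.12), *Mcm5* (1.69), *Gmnn* (0.99), *Mcm2* (0.76), *Cdt1* (0.60), *Mcm10* (0.51) and *Cdc6* (0.30). Neighbours in these orders overlapped widely over cells. The 5 subunits other than *Mcm2* held the 5 highest places at both ages, and *Mcm2* was the lowest subunit. The order differs for summed reads, which follow the highest cells. As CPM per kilobase of summed reads, *Gmnn* stood below *Mcm4* alone in young cells (85.3 against 90.2) and below *Mcm3*, *Mcm4*, *Mcm6* and *Mcm7* in old cells (27.6), and the lowest subunit was *Mcm2* in young (20.5) and *Mcm5* in old cells (8.44).

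The class genes were expressed in 27 of 52 young cells (51.9%, 37.6 to 65.99) and 13 of 62 old cells (20.97%, 11.7 to 33.2). Of the 27 young cells, 12 had 1 class gene and 15 had 2 or more. Of the 13 old cells, 10 had 1 class gene, 3 had 2 and none had more.

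In young cells all 10 members had a higher mean level in the 27 cells with class genes than in the 25 without, and 8 of them by at least 1, beside 14.1% of 13999 genes. The median difference was 1.38 over the members and 0.11 over all genes. *Mcm4*, another subunit of the ring, differed most. It ran from 0 over a median of 0.54 to 9.75 in cells without class genes and from 0 over a median of 6.99 to 11.01 in cells with them, and was expressed in 7 of 25 and 21 of 27 cells. Its means were 2.20 and 6.23, a difference of 4.03.

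*Mcm7* was expressed in 9 of 25 young cells without class genes and 18 of 27 with them, and its mean rose by 2.35 from 2.11 to 4.47. *Gmnn* was expressed in 4 of 25 and 13 of 27 cells, with means of 1.34 and 3.31. *Mcm10* was expressed in 1 of 25 and 8 of 27 cells, with means of 0.14 and 1.61. The other members past the limit were *Mcm2* (1.75), *Mcm3* (1.30), *Mcm6* (1.24) and *Cdt1* (1.20), given as differences of mean log2(CPM + 1). That of *Cdt1* was 0.95 without the young cell G1. *Mcm5* (0.84) and *Cdc6* (0.57) were not.

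The number of genes detected moved with the class in young cells, with a median of 6530 genes in cells with class genes and 5739 in cells without. Some markers of other cell types moved with it too, and others did not. Mean log2(CPM + 1) was higher by at least 1 with class genes for *Itga2b* (1.55), *Cd79b* (1.49), *Lyz2* (1.24), *Cd34* (1.16) and *Gp9* (1.09). It was lower for *Itgam* (-0.38), *Mpo* (-0.16) and *Cd3d* (-0.11), and did not differ for *Elane* and *Hba-a1*. Among the HSC markers *Mecom* was higher (1.17) and *Hlf* lower (-1.90). At least 1 megakaryocyte and platelet marker was expressed in 14 of 27 young cells with class genes and 7 of 25 without. The part of these markers was not tested. Among the young cells at or below the median number of genes for their age, the mean level of the 6 subunits was 3.92 with class genes (8 cells) and 2.32 without (18 cells). Among those above it, the means were 5.18 (19 cells) and 4.36 (7 cells). The mean was higher with class genes in both sets of young cells. Cells within a set still differed in genes detected, and the part of genes detected was not tested. With TMMwsp factors in place of read totals, and the class of each cell kept, 6 of 10 members were higher by at least 1 in young cells, with a median of 1.19. Over all genes these factors moved the median from 0.11 to -0.02, and the shares of genes higher and lower from 14.1% and 2.69% to 8.76% and 7.06%. Where the class was also set anew on the rescaled levels (25 cells with and 27 without class genes), 5 members were higher, with a median of 0.94. Of all genes, 8.15% were higher by at least 1 there.

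In old cells the 13 cells with class genes and the 49 without differed less. No member was higher by at least 1, beside 8.33% of 14140 genes, and *Mcm6* was lower by 1.06 (means 3.42 without and 2.36 with class genes, 23 of 49 and 3 of 13 cells expressing it), a call lost when any of 22 cells was left out. Differences were above 0 for 6 members and below 0 for 4, with a median of 0.27 over the members and 0.04 over the subunits. *Mcm4* had means of 3.21 without and 3.31 with class genes, *Mcm7* 2.82 and 2.78, and *Mcm3* 3.25 and 3.22. *Gmnn* (0.99), *Mcm10* (0.98) and *Mcm5* (0.87) had the highest differences. *Cdc6* was expressed in 5 of 49 and 0 of 13 cells, which allows a share of up to 23.1%, and the 13 cells held 2 *Cdc6* reads in all (95% exact Poisson interval 0.242 to 7.22). The direction in old cells differed between cells with fewer and with more genes detected. At or below the median number for their age the mean level of the 6 subunits was 0.97 with class genes (6 cells) and 2.21 without (25 cells), and above it the means were 4.32 (7 cells) and 3.26 (24 cells). The mean of 4.32 rested on wells D4 (8.81), G9 (8.26) and C3 (6.08). The others of these 7 cells stood at 2.66 (B7), 2.12 (C8), 1.59 (H1) and 0.75 (F8). The part of genes detected was not tested. The number of members higher by at least 1 depended on the setting. It was 3 with cells of 1000000 or more mapped reads (median 0.85), 3 with a pseudocount of 0.1, 3 with thinning to 250000 reads and 6 with summed counts. Shares of all genes were not taken under these. With the class set anew, the number was 1 with TMMwsp factors, beside 7.87% of all genes, and 0 with poscounts factors, beside 7.40%. It was also 0 with all captured cells, where the share of all genes was not taken.

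**Figure D2:**
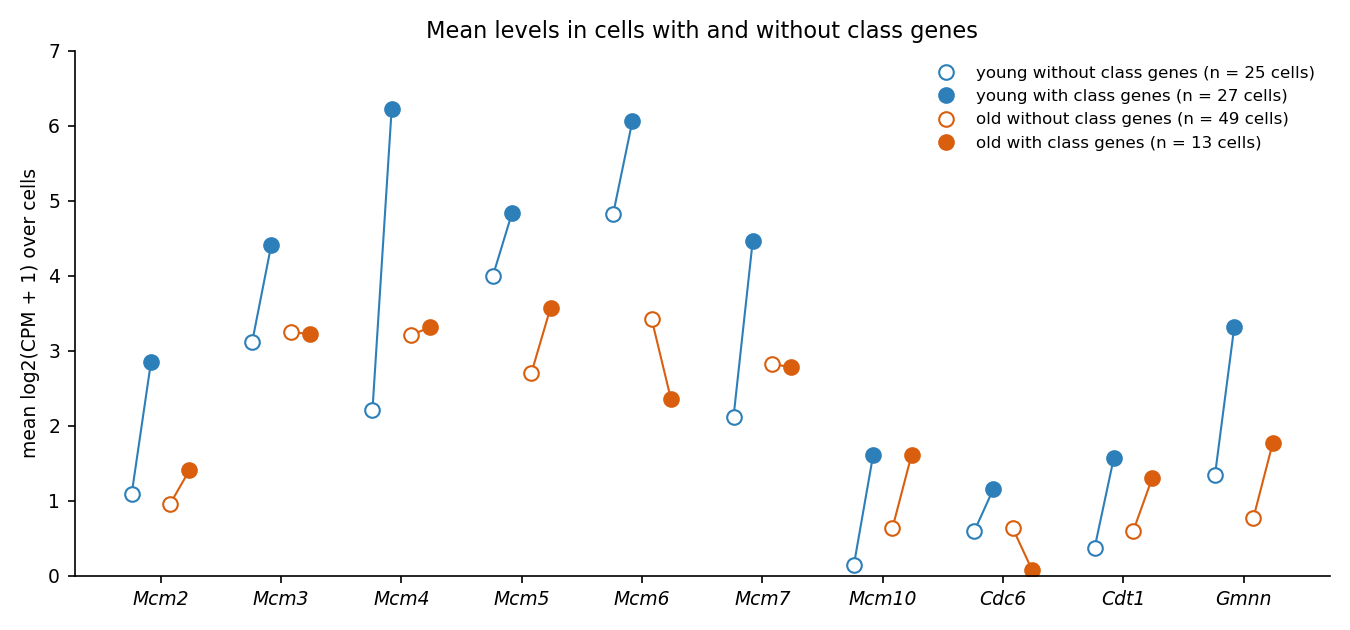
Mean log2(CPM + 1) of each member over the cells without (open) and with (filled) class genes, in young and old cells. Lines join the 2 values of an age. In young cells all 10 lines rise, the steepest for *Mcm4* (2.20 to 6.23), while in old cells the lines of *Mcm6* and *Cdc6* fall and those of *Mcm3*, *Mcm4* and *Mcm7* are nearly level.

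The result in old cells changed with the number of class genes required. In the 10 old cells with 1 class gene the mean level of the 6 subunits was 2.04, against 2.73 in the 49 with none. In the 3 old cells with 2 class genes it was 5.21, and their single values were 8.81 (well D4), 6.08 (C3) and 0.75 (F8). When at least 2 class genes were required, 9 of 10 members were higher by at least 1 in old cells and the median difference was 2.93. This rests on these 3 cells, of which C3 and D4 were high and F8 was low. The limit was added after the data had been seen, and the share of all genes higher was not taken under it. C3 and D4 had 7217 and 7173 genes detected and F8 5874, beside a median of 5804 in old cells with no class gene. The part of genes detected was not tested. Leaving out the old cell D4 from the first split turned the median difference from 0.27 to -0.31.

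In young cells the mean level of the 6 subunits was 2.89 in cells with no class gene, 4.55 with 1, 5.31 with 2, 7.16 with 3 and 3.33 with 4. The 3 cells with 3 class genes expressed 6, 6 and 5 subunits. The 5 cells with all 4 class genes expressed 3, 4, 1, 4 and 4. None of these 5 cells had a read of *Cdc6* or *Cdt1*, while *Gmnn* stood at 8.49, 8.22 and 7.55 in 3 of them and at 1.27 and 0 in the others. By number of class genes, the mean level of *Gmnn* in young cells was 1.34 with none, 2.00 with 1 and 4.36 with 2 or more, and in old cells it was 0.77, 0.78 and 5.04. *Cdt1*, which geminin binds, stood at 0.37, 2.03 and 1.20 in the same 3 sets of young cells and at 0.59, 0.30 and 4.66 in those of old cells, the last of them 3 cells.

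**Figure D3:**
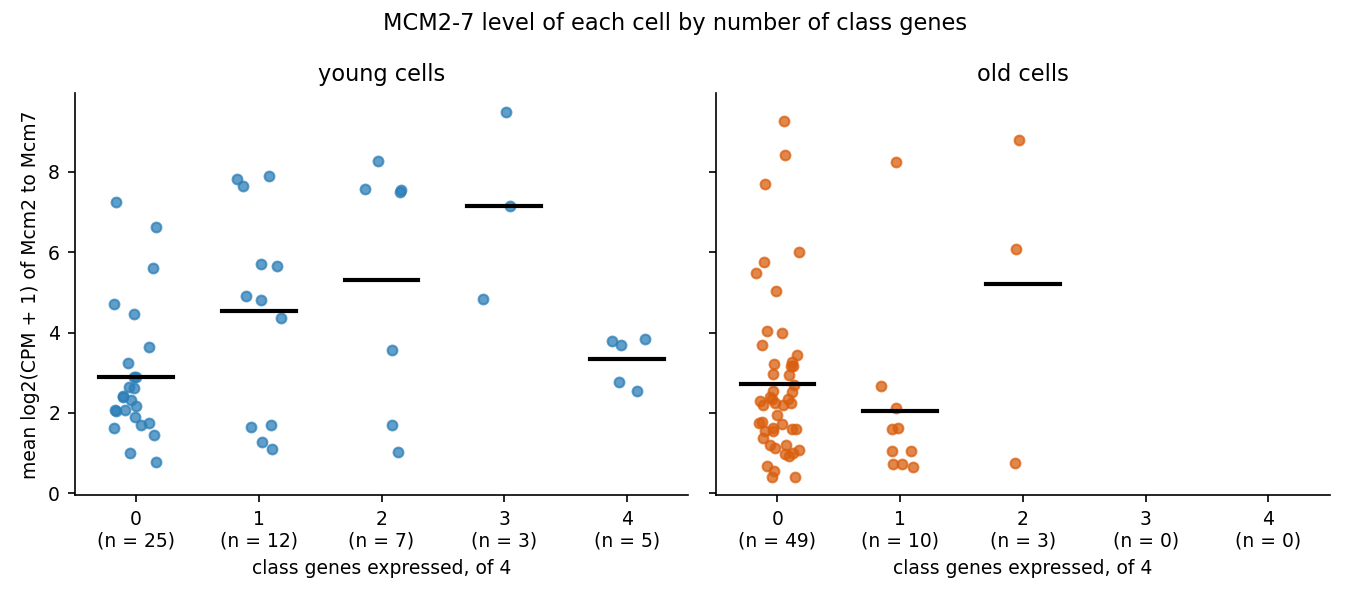
Mean log2(CPM + 1) of *Mcm2* to *Mcm7* in each cell, by the number of the 4 class genes that the cell expressed, for young (left) and old (right) cells. Bars are means over cells. The means of young cells go from 2.89 with no class gene to 7.16 with 3 and 3.33 with 4, and no old cell expressed more than 2.

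Within cells without class genes, the members as a group differed little between the ages in the main split, while other definitions of the class gave lower medians. Over the 49 old and 25 young cells of this class the median difference of the members was 0.09, with 6 above and 4 below 0. The median was -0.43 when cells with 1 class gene were counted among those without, and -0.08 with TMMwsp factors and the class of each cell kept (-0.30 where the class was set anew, on 50 old and 27 young cells). With class genes at 1 read or more it was -0.42, with 7 of 10 members below 0. With class genes above 4 it was -0.30, with 8 of 10 below 0. For summed counts it was 0.39, with 4 of 10 below 0. *Mcm5* (-1.29) and *Mcm6* (-1.40) were lower by at least 1 in old cells, which is 2 of 10 members beside 4.29% of 14486 genes, and *Mcm4* (1.01) was higher, 1 of 10 beside 7.75%. *Mcm5* was found above the limit in 24 of 25 young and 35 of 49 old cells of this class, with medians of 3.38 and 2.40. *Mcm6* was expressed in 15 of 25 and 23 of 49, with medians of 5.49 and 1.47. *Mcm5* and *Mcm6* stayed past the limit when any 1 cell was left out, with smallest differences of -1.001 without the young cell F1 and -1.15 without the young cell B5. They also stayed past it under every other setting tried except thinning to 250000 reads, where *Mcm6* came to -0.92. The call of *Mcm4* was lost when any of 33 cells was left out. The young cell F1 held 77.3% of all *Mcm5* reads in the young cells without class genes.

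Within cells with class genes, 8 of 10 members were lower by at least 1 in the 13 old than in the 27 young cells, beside 13.5% of 13922 genes, and the median difference was -1.35. *Mcm6* (-3.71) and *Mcm4* (-2.92) differed most, and *Cdt1* (-0.26) and *Mcm10* (0.01) did not pass the limit. Of the 8, *Mcm3* fell short of it when any of 11 cells was left out, *Cdc6* when any of 4 was, and *Mcm5* without the old cell H6 (-0.97). These comparisons share cells with those above and are not independent of them. With at least 2 class genes required, the median difference turned to 0.76, on 3 old and 15 young cells.

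The subunits expressed as transcripts were next counted in each cell, since the ring needs all 6 proteins, which were not measured. Young cells expressed a median of 3 subunits (lowest 1, highest 6) and old cells a median of 2 (lowest 0, highest 6). At least 4 subunits were expressed in 23 of 52 young cells (44.2%, 30.5 to 58.7) and 15 of 62 old cells (24.2%, 14.2 to 36.7), and all 6 in 10 young (19.2%, 9.63 to 32.5) and 6 old cells (9.68%, 3.63 to 19.9). The intervals of the 2 ages overlap. After each cell was thinned to 250000 reads, the counts of cells with at least 4 were the same, 23 and 15. At that depth 1 read is worth 4 CPM and so passes the limit.

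Young cells with class genes expressed a median of 5 subunits, with at least 4 in 18 of 27 (66.7%, 46.04 to 83.5), and young cells without expressed a median of 2, with at least 4 in 5 of 25 (20.0%, 6.83 to 40.7). Old cells with and without class genes both had a median of 2, with at least 4 subunits in 3 of 13 (23.1%, 5.04 to 53.8) and 12 of 49 (24.5%, 13.3 to 38.9). Of the 6 old cells with all 6 subunits, 4 had no class gene. Of these, the cell of well H8 expressed all 10 members and was the only cell of either age to do so, and that of B10 expressed 9, without *Gmnn*. The old cell H8 had 7723 genes detected, the most of any cell used, and the old cell B10 had 5348. Over cells the number of subunits had a Pearson r of 0.49 with the number of genes detected in both ages, over 52 and 62 cells, and of -0.03 in young and -0.25 in old cells with the log10 of counted reads. Cells of an age share a mouse and differ in depth and in genes detected, so these r are given as descriptions.

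**Figure D4:**
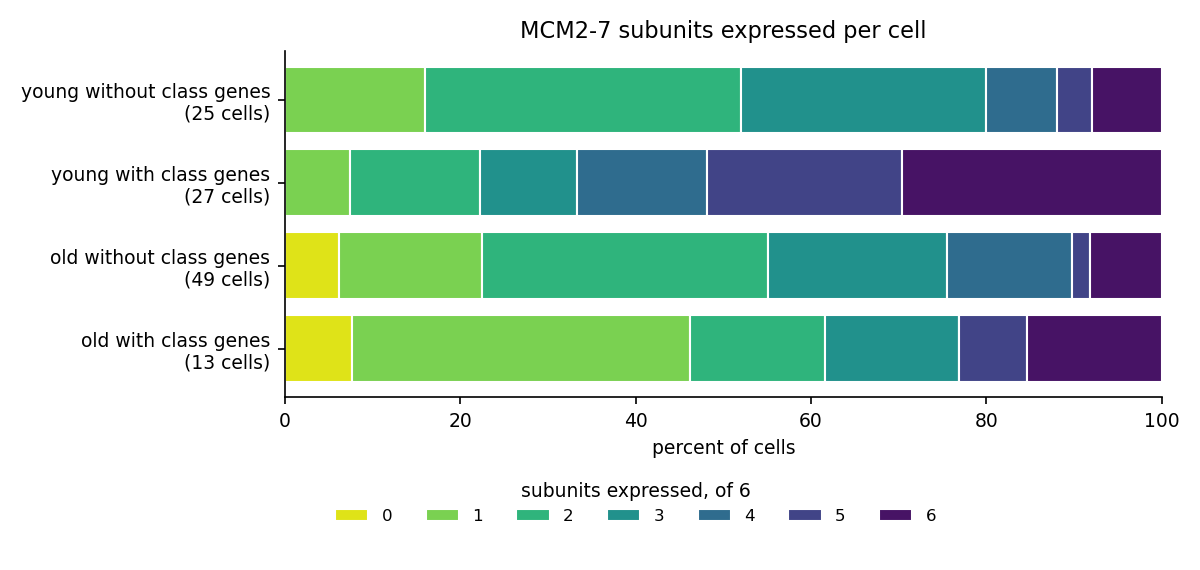
Share of cells, in percent, that expressed 0 to 6 of the MCM2-7 subunits, for young and old cells without and with class genes. Of the young cells with class genes 66.7% expressed at least 4 subunits, against 20.0%, 24.5% and 23.1% in the other 3 sets.

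Cells that expressed a loading factor also expressed more subunits at both ages. The number of subunits moved with the number of genes detected (r = 0.49 at both ages). The part of genes detected in this was not tested. The 14 young cells with *Cdc6* or *Cdt1* expressed a mean of 5.07 subunits and the others 2.89, and in old cells the means were 5.13 (8 cells) and 2.19. *Cdc6* and *Cdt1* were expressed together in 2 young and 2 old cells. *Cdt1* and its inhibitor *Gmnn* were expressed together in 7 young cells, *Cdt1* without *Gmnn* in 3, *Gmnn* without *Cdt1* in 10 and neither in 32. In old cells the numbers were 4, 1, 4 and 53. Of the 10 young cells with *Cdt1*, 7 thus also expressed *Gmnn*, and of the 5 old cells 4 did. These are transcripts, and the proteins were not measured. With 1 read or more as the limit, 12 of 15 young cells with *Cdt1* and 5 of 12 old ones also held *Gmnn*, so in old cells the share depended on the limit.

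Over young cells the 15 pairs of subunits had Pearson r between 0.09 (*Mcm4* and *Mcm6*) and 0.54 (*Mcm2* and *Mcm5*), with a median of 0.39. Over old cells r lay between 0.14 (again *Mcm4* and *Mcm6*) and 0.57 (*Mcm2* and *Mcm7*), with a median of 0.33. The highest r among all 45 pairs of members was that of *Mcm10* and *Cdt1* in both ages, 0.64 in young and 0.76 in old cells, on 6 and 5 cells that expressed both.

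The genes most like the subunits were sought among the 9365 other genes expressed in at least 10% of cells, by Pearson r with the mean level of *Mcm2* to *Mcm7* over the 52 young cells. They were *Rpa2* (r = 0.74), *Lig1* (0.74), *Uhrf1* (0.71), *Wdhd1* (0.70), *Cmc2* (0.67), *Dtl* (0.67), *Nasp* (0.66), *Dut* (0.66), *Tipin* (0.64) and *Asnsd1* (0.64), while the median gene had 0.04. Over the 62 old cells *Uhrf1*, which maintains DNA methylation at replicated DNA, had 0.73, the DNA ligase *Lig1* 0.68, *Tipin* 0.65 and *Dtl* 0.61. *Rpa2*, a subunit of the protein that coats single-stranded DNA, had 0.17, *Cmc2* 0.18 and *Asnsd1* -0.14 there. The order was made in young cells, so lower values in old cells are partly set by the choice.

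Of the genes that act beside the members in replication, 80 were listed and all 80 were in the table. Between the ages 18 of the 80 were lower and 1 higher by at least 1 (4.49% of all genes were lower), with a median of -0.41. The 6 genes of the origin recognition complex, which receives the loading factors, held none past the limit and had a median of -0.05. *Orc2* had the largest difference among them (means 1.19 in young and 1.91 in old cells), followed by *Orc4* (3.62 and 3.15), *Orc1* (0.74 and 0.39) and *Orc3* (3.52 and 3.87). Of the 4 other genes of the MCM family, *Mcmbp*, whose product binds MCM subunits, was lower (6.92 and 5.89).

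Of the 12 genes of helicase activation 4 were lower in old cells. These were *Topbp1* (3.92 in young and 2.29 in old cells), *Wdhd1* (1.97 and 0.67), the kinase *Cdc7* (2.35 and 1.12) and *Cdc45* (1.45 and 0.38), whose product joins the ring in the active helicase. Of the 30 replisome genes 11 were lower. The primase subunit *Prim1* (2.98 and 0.64) and the polymerase subunit *Pola1* (3.41 and 1.31) led them, before *Lig1* (3.35 and 1.30) and *Tipin* (3.38 and 1.78). Of the 11 genes of licensing control, *Dtl*, whose product targets CDT1 for destruction, was lower (2.46 and 1.29) and *Cul1* was higher (3.01 and 4.75). *Rbl1* (2.81 and 1.13) was the one gene past the limit among 13 of the E2F and Rb family, and none of the 4 cyclin E and Cdk2 genes passed it.

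In cells without class genes 5 of the 80 genes were lower and 2 higher in old cells, with a median of 0.06, beside 4.29% of all genes lower and 7.75% higher, so these counts lie near the background. *Prim1* (-1.62), *Pola1* (-1.38) and *Topbp1* (-1.43) were among the 5, while *Lig1* (-0.47), *Tipin* (-0.61) and *Cdc7* (-0.40) were not. With class genes against without, 40 of the 80 genes were higher in young cells (median 0.98) and 18 in old cells (median 0.42), beside 14.1% and 8.33% of all genes. The replisome list had 22 of 30 genes higher in young and 11 of 30 in old cells. *Lig1*, *Tipin*, *Prim1* and *Pola1* were higher by at least 1 at both ages (1.43, 1.76, 1.25 and 1.48 in old cells). The list of helicase activation had 7 of 12 genes higher in young and 1 of 12 in old cells. The members had 8 of 10 higher in young cells and none in old cells, where the number depended on the setting.

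**Figure D5:**
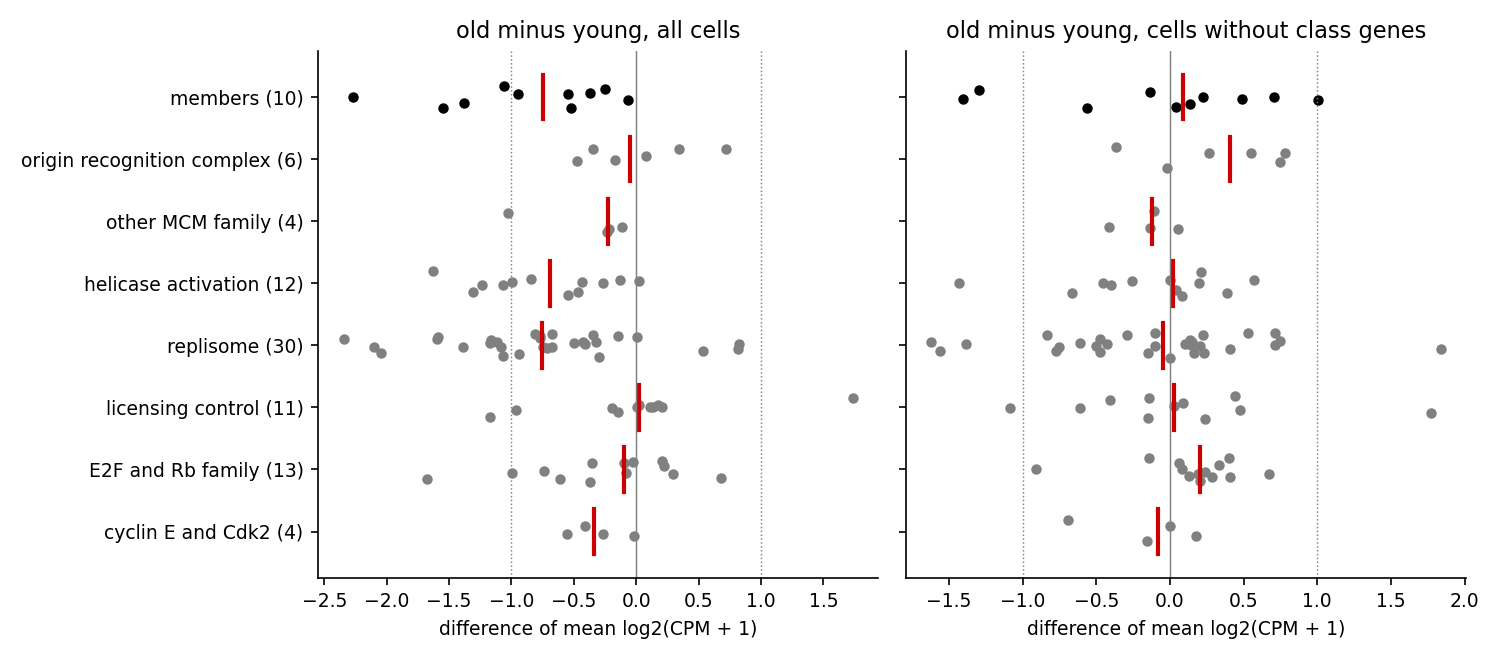
Difference of mean log2(CPM + 1), old minus young, for each of the 10 members and each gene of the 7 related lists, over all cells (left) and over cells without class genes (right). Points are genes, red bars list medians, and dotted lines the limits of -1 and 1. The median of the members is -0.75 on the left and 0.09 on the right.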

How the data were processed

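The authors mapped 51 bp single-end reads to the mouse genome mm10 with TopHat2 2.0.10, kept 1 alignment per read, counted reads on RefSeq genes with rpkmforgenes and deposited raw read counts per gene and cell, without normalization. Counts were scaled to CPM by the total of each cell, and 1 CPM was added before log2. The authors checked capture sites for single cells by microscopy, and no doublet caller was run here. Each age is 1 mouse, so no test was run, nor could a replicate be dropped. Shares carry 95% exact Clopper-Pearson intervals, summed counts 95% exact Poisson intervals, and a share of 0 allows up to 3 cells. The members and gene lists were chosen with earlier results of these data known. Text names all 10 members, the 4 genes of each list with the largest absolute difference between the ages, and the 10 genes most like the subunits in young cells. *Mcm10* and *Cdt1*, and other single cells or pairs singled out, were chosen after their values were seen.

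Alternatives were all 135 captured cells, cells passing the limits of another study, cells of 1000000 or more mapped reads, a pseudocount of 0.1, TMMwsp factors (edgeR 4.0.16) and poscounts factors (DESeq2 1.42.0), thinning to 250000 reads, ratios of summed counts (with a floor of 3 reads per group) and other limits for an expressing cell. Other definitions of the class, scaling factors with the class kept, and leaving out each cell in turn were added after the data had been seen. A value was taken to hold where the ratio it stands for moved by less than 1.5 times. Positions, promoters and transcript lengths came from RefSeq (GRCm38.p6) and GENCODE M21. The steps were tested on simulated data. Python 3.11.15, numpy 2.4.6, pandas 2.3.3, scipy 1.17.1 and R 4.3.3 were used.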

Additional observations from a re-analysis of the deposited data

Results flagged for a closer look

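The difference between cells with and without class genes had opposite signs in the 2 mice for 4 members, and this difference between the mice was not tested, since each age is 1 mouse. The value in old cells minus the value in young cells was -1.33 for *Mcm3*, -2.30 for *Mcm6*, -2.39 for *Mcm7* and -1.12 for *Cdc6*, in mean log2(CPM + 1). The value was above 0 in young and below 0 in old cells under 8 of 13 other settings for *Mcm3*, 11 of 13 for *Mcm6*, 6 of 13 for *Mcm7* and 10 of 13 for *Cdc6*. With class genes at 1 read or more, the signs of *Mcm6* were the other way round. In old cells *Mcm3* (-0.02) and *Mcm7* (-0.04) lay close to 0.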

How the results depend on the processing

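No paired analysis was possible because the cells carry well names and no replicate numbers that the mice share. The median difference between the ages stayed below 0 under all 8 other settings of cells, scale and depth (-0.71 with thinning to -1.13 with a pseudocount of 0.1) and between -0.87 and -0.63 with any 1 cell left out. The median in cells with class genes against without moved in young cells to 2.15 with a pseudocount of 0.1 and 0.69 with class genes at 1 read or more (1.14 to 1.54 with any 1 cell left out). In old cells it moved to 1.35 for summed counts and 2.93 with at least 2 class genes (-0.31 to 0.47 with any 1 cell left out). With cells of 1000000 or more mapped reads it came to 0.85 in old cells. Between the ages it stayed within -0.06 to 0.25 without class genes and within -1.87 to -1.16 with class genes when any 1 cell was left out, and with class genes it moved to -2.18 with a pseudocount of 0.1 and -0.52 with class genes at 1 read or more, and turned to 0.76 with at least 2 class genes. Without class genes the other settings gave -0.43 (at least 2 class genes) to 0.39 (summed counts).

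Of 612 differences of single members under other settings, 484 held, 116 moved and 12 turned. A difference counts here as turned only if it was at least 1 in size in the main setting and changed sign. Sign changes of smaller differences are among those that held or moved. With summed counts, *Mcm2* turned to -0.47 in young cells with against without class genes, and *Mcm2* (0.66) and *Mcm7* (0.29) turned between the ages in cells with class genes. With class genes at 1 read or more, *Mcm6* turned to -0.93 in young and 0.71 in old cells. With at least 2 class genes, *Mcm6* turned to 2.61 in old cells, *Mcm4* to -0.15 between the ages without class genes, and *Mcm2* (0.090), *Mcm3* (1.44), *Mcm5* (1.73), *Mcm7* (0.84) and *Gmnn* (0.68) between the ages with class genes. The cause was not tested. The class held 42 young and 24 old cells at 1 read or more, and 17 and 7 with class genes above 4. Members higher in young cells with class genes numbered 5 with summed counts and 4 with at least 2 class genes. With TMMwsp factors they numbered 5 with the class set anew, beside 8.15% of all genes, and 6 with the class kept, beside 8.76%. The share of all genes higher was not taken with summed counts or with at least 2 class genes. Of 40 shares of expressing cells under a limit of 1 read or of 4, 18 stayed inside their interval. The share was lower in old cells for 10 of 10 members, and for 9 of 10 with either limit.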
